A study of Mus musculus with 24 samples.

Results

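Mature microRNAs (miRNAs) of the mouse ocular lens were compared between embryonic day 18 (E18) and embryonic day 15 (E15). The comparison rests on 4 small-RNA libraries, pools A and B at E18 and pools A and B at E15, out of 12 small-RNA libraries and 24 libraries in all. All 1908 miRNA names of each table belong to it. The E18 group is lens of C57BL/6 mice at embryonic day 18, and the E15 group is lens of C57BL/6 mice at embryonic day 15. Neither group carries a treatment or an engineered allele in its labels, and each pool held the lenses of 8 to 9 pups. Lenses were taken out with forceps, so vessels, retina or other ocular tissue adhering to a lens would enter its pool. The study also sequenced mRNA of the same stages and both kinds of RNA at postnatal days 0, 3, 6 and 9 (P0 to P9). Values are the authors' deposited signal, whose unit the labels and tables do not state; it was treated as scaled to a library, since library totals lay close together. Log2 fold changes are E18 minus E15 on log2(signal + 1) with their standard error (SE), which understates changes of low miRNAs. A miRNA was called where its adjusted p from limma, Benjamini-Hochberg adjusted over all tested miRNAs, was below 0.05.

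A miRNA is a short RNA that guides a silencing complex to mRNAs, mainly through its seed, bases 2 to 8 from the 5′ end. miRNAs made from a shared precursor transcript tend to be produced together, and miRNAs that share a seed can act on overlapping targets. Between these stages the mouse lens grows by division in its anterior epithelium and by elongation of fiber cells that fill with crystallins. During this period it is wrapped in a network of hyaloid vessels.

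Several of the miRNAs described below share a seed or a locus, and these are shown first. The mature sequences are RefSeq's, on mouse build GRCm38.p6, 5′ to 3′, with the seed in capitals. The first set is shown because every member fell, and it holds the miR-200 family, which has 2 seeds, and miR-205:
miR-200b-3p: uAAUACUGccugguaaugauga
miR-429-3p: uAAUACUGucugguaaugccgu
miR-200c-3p: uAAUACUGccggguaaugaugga
miR-200a-3p: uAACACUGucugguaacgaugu
miR-141-3p: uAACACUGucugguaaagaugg
miR-205-5p: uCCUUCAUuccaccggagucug
The genes for miR-200b, miR-200a and miR-429 lie together on the minus strand at chr4:156053916-156055742, and miR-205-5p lies at chr1:193507503-193507524 on the minus strand.

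The second set shares the seed AUUGCAC and is shown because 4 of its 5 members fell while the last, miR-32-5p, did not:
miR-92a-3p: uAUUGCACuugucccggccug
miR-92b-3p: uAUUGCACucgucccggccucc
miR-25-3p: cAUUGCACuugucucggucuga
miR-363-3p: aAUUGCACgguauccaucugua
miR-32-5p: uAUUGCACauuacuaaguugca
The mature miR-92a-3p sequence is encoded at chr14:115044476-115044496 on the plus strand and at chrX:52741854-52741874 on the minus strand, so its signal cannot be assigned to either locus.

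The third set rose in E18 and comes from the minus strand of chr6:30165923-30169732, the miR-183 cluster, whose seeds resemble each other without being the same:
miR-182-5p: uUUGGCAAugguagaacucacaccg
miR-183-5p: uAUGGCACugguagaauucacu
miR-96-5p: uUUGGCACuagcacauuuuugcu
The let-7 members that rose share the seed GAGGUAG:
let-7b-5p: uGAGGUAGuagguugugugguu
let-7g-5p: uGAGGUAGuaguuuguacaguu
miR-98-5p: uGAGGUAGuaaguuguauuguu

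Of 777 miRNAs that could be tested, 94 differed between E18 and E15, which is 12.1% of those tested. Of these, 17 were higher in E18 (2.19%) and 77 were lower (9.91%). Library totals of the deposited signal ranged only from 764 to 817 (in units of 1e3) over the 12 libraries, the depth in reads is unknown, and the 10 most abundant miRNAs took 48.3% to 50.8% of the signal in each of the 4 libraries. Because the median log2 fold change of all tested miRNAs was -0.24, the fit was repeated after rescaling. With median-ratio rescaling the median was -0.01 and 77 miRNAs were called (9.91%), 38 higher (4.89%) and 39 lower (5.02%). With quantile normalization the median was 0.04 and 76 were called (9.78%), 43 higher (5.53%) and 33 lower (4.25%). All 17 miRNAs called higher stayed so on both other scales. Of the 77 called lower, 39 stayed so with median-ratio rescaling and 32 with quantile normalization, and no called miRNA changed sign. The 2 pools did not overlap between the stages for any of the 94, against 57.5% of all tested miRNAs. Counts of calls depended on single libraries: 27 miRNAs were called without E18 pool A, 42 without E18 pool B, 55 without E15 pool A and 59 without E15 pool B. Each such fit leaves 1 library at that stage, which is assumed to vary like the other stages.

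**Figure D1:**
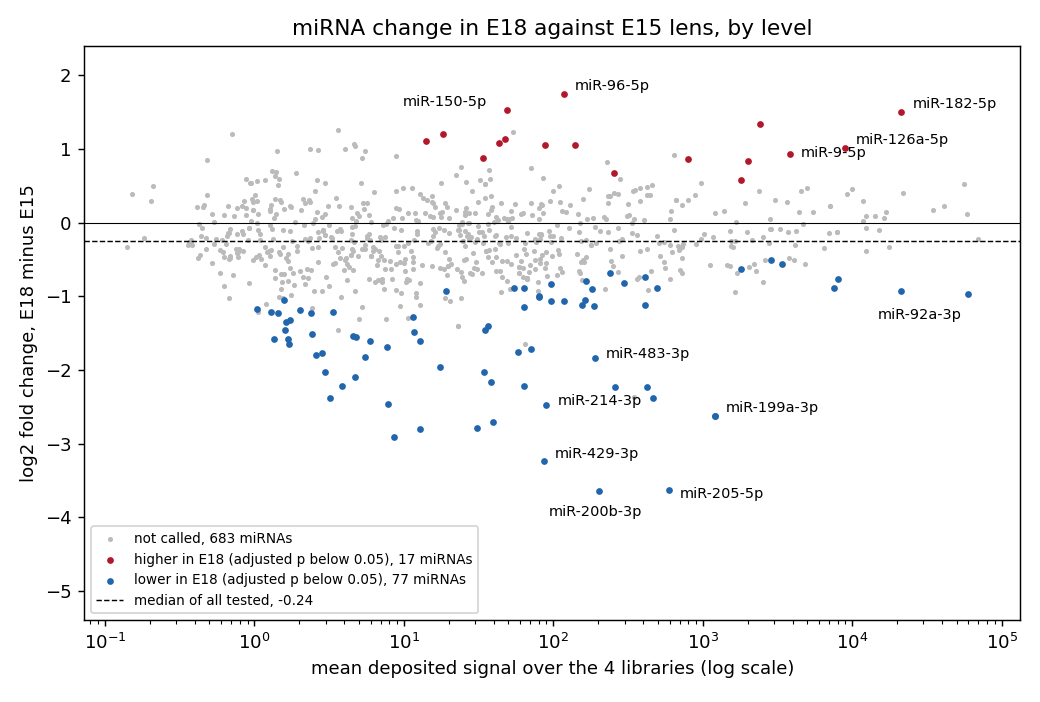
Log2 fold change (E18 minus E15) of the 777 tested miRNAs against their mean deposited signal over the 4 libraries, on a log axis. The 17 red points were called higher in E18 and the 77 blue points lower; the steepest falls are miR-200b-3p and miR-205-5p at -3.64 each, and the dashed line is the median of all tested miRNAs, -0.24.

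The libraries had the character of lens with other ocular tissue. In the mRNA libraries of these stages all 5 lens markers were detected, led by the crystallin Cryaa at 27655 and 28211 RPKM in E18 pools and 22747 and 32377 RPKM in E15 pools. Of these 5, the crystallin Cryab was called higher and Foxe3, a transcription factor of the lens epithelium, lower, and Cryaa, Mip and Prox1 were not called. The Cryab call was lost with median-ratio rescaling (limma adjusted p = 0.0678) and without either E18 mRNA pool (0.0621 and 0.0703). Retina markers (Rax, Crx, Sfrp2 and Fgf15) summed to 379 and 337 RPKM in E18 pools A and B, against 651 and 172 RPKM in E15 pools A and B. The E15 pools therefore differed from each other in retinal mRNA more than the E18 pools did. Among small-RNA libraries, E15 pool A stood apart in some miRNAs encoded in the Hox gene clusters, for which values are given with miR-10b below. Nothing in the labels says that an mRNA library and a small-RNA library of the same letter came from the same pool.

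miRNAs typical of epithelia showed the largest falls. All 6 listed members of the miR-200 family with miR-205 fell in E18, with a median log2 fold change of -3.02, where the median of all tested miRNAs was -0.24 and 9.91% were called lower. The 6 members summed to a signal of 132 and 181 in the E18 pools, against 1702 and 1832 in the E15 pools. In epithelia miR-200 members repress the transcription factors Zeb1 and Zeb2, and miR-205 is abundant in surface epithelia such as epidermis and cornea. In tissue pools like these, fewer cells of a type and less RNA per cell cannot be told apart.

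miR-205-5p measured 72.5 and 104 in E18 pools A and B, against 991 and 1197 in E15 pools A and B. It was 91.9% lower in E18 (log2 fold change -3.64 ± 0.23 SE, limma adjusted p = 6.68e-07), and the pools of the stages did not overlap. miR-200b-3p stood at 23.3 and 36.1 in E18, against 409 and 341 in E15 (-3.64 ± 0.34, adjusted p = 1.16e-05). miR-429-3p, transcribed with it, had 13.8 and 17.8 in E18 and 164 and 149 in E15 (-3.24 ± 0.28, adjusted p = 5.84e-06). Members with the other seed fell as well. miR-200a-3p gave 5.92 and 8.45 in E18 against 53.8 and 56.2 in E15, and miR-141-3p gave 13.1 and 13.4 against 62.1 and 64.0. miR-200c-3p, the partner of miR-141 on chromosome 6, was scarce at both stages, with 3.08 and 1.95 in E18 and 21.5 and 24.9 in E15. Thus the 3 miRNAs with seed AAUACUG summed to 0.0865 times their E15 signal. All 6 calls held on both other scales and without each of the 4 libraries in turn. The passenger strands of the chromosome 4 cluster followed, so that 5 of 5 tested products of that locus were called lower on the deposited scale; the lowest, miR-200b-5p, did not pass on the other scales (0.0836 and 0.118).

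miR-203-3p, which in mouse epidermis promotes differentiation by repressing the basal cell factor p63, also fell. It had 105 and 182 in the E18 pools and 977 and 435 in the E15 pools (-2.23 ± 0.34, adjusted p = 0.00119). The E15 pools differed from each other, yet both exceeded both E18 pools, and the call held without any 1 of the 4 libraries. In the mRNA libraries a list of surface epithelium genes, which was added after the miRNA values had been seen, moved the same way. Krt5, Krt14 and Krt15, keratins of stratified epithelia, were called lower (3 of the 3 tested, where 3.67% of 14405 tested genes were lower). Krt5 had 0.185 and 0.478 RPKM in E18 and 7.65 and 6.98 RPKM in E15. Summed with Krt17 and Trp63, which were too low to test, the list gave 1.25 and 2.35 RPKM in E18 and 18.9 and 16.9 RPKM in E15, and Krt17 was at 0 in 1 E18 library. Foxe3, of the lens's own epithelium, was lower too, at 18.5 and 16.7 RPKM in E18 and 47.4 and 91.02 RPKM in E15 (-1.84 ± 0.27, adjusted p = 0.00358), a call kept on the other scale and without any 1 of these mRNA libraries. The part of surface or lens epithelium in the miR-200 and miR-205 falls was not tested.

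Listed miRNAs of mesenchyme were lower in E18. Of 13 listed, 11 were tested, 7 fell, where 9.91% of all tested miRNAs did, and none rose, with a median log2 fold change of -2.37. The 7 names stand for 6 measurements, since miR-199a-3p and miR-199b-3p share theirs. The 7 calls held on both other scales, and 6 to 8 members were called lower when 1 library was left out. miR-214 and the chromosome 1 copy of miR-199a are processed from Dnm3os. This is a noncoding transcript on the strand opposite Dnm3 that marks embryonic mesenchyme and skeletal tissue.

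miR-199a-3p measured 295 and 373 in the E18 pools, against 1659 and 2535 in the E15 pools (-2.62 ± 0.22, adjusted p = 5.84e-06). The values listed for miR-199b-3p are identical. miR-199a-5p, the opposite arm, had 85.5 and 94.2 in E18 and 361 and 502 in E15 (-2.23 ± 0.27, adjusted p = 0.000184). miR-214-3p had 23.5 and 30.1 in E18 and 140 and 166 in E15 (-2.48 ± 0.29, adjusted p = 0.000161). miR-199b-5p, which comes from a locus of its own, had 9.27 and 9.43 in E18 and 51.5 and 86.7 in E15 (-2.71 ± 0.43, adjusted p = 0.00194). For each of these the E18 pools were close to each other and far below both E15 pools. The mature miR-199a-3p sequence is also encoded at chr9:21496498-21496519 on the minus strand, and its values equal those of miR-199b-3p. Its signal therefore cannot be assigned to Dnm3os. The 3p arms of miR-199a and miR-214 are shown because both kept their call under every alternative:
miR-199a-3p: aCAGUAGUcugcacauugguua
miR-214-3p: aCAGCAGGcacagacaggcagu
The host Dnm3os itself was too low to test in the mRNA libraries, at 0.027 and 0.046 RPKM in E18 and 0.029 and 0.010 RPKM in E15. Collagen and periostin mRNAs of mesenchyme summed to 5.58 and 8.83 RPKM in E18 and 22.01 and 18.9 RPKM in E15. Of those 4 genes Col1a2 was called lower, and Col1a1, Col3a1 and Postn had log2 fold changes of -1.45, -1.07 and -0.56 without passing the test. Whether mesenchymal cells had a part in the miRNA falls was not tested.

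miR-10b-5p and miR-10a-5p, encoded in Hox gene clusters, belong to the same list and behaved differently between the E15 pools. miR-10b-5p had 76.9 and 198 in E18 pools A and B, against 1249 and 332 in E15 pools A and B (-2.38 ± 0.57, adjusted p = 0.0176). Its call was lost without E15 pool A (adjusted p = 0.142) and without E18 pool A (0.152). miR-10a-5p had 64.2 and 73.1 in E18 and 1136 and 113 in E15, and did not pass (-2.37 ± 0.75, adjusted p = 0.0570). Most of the E15 mean of both therefore came from pool A.

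**Figure D2:**
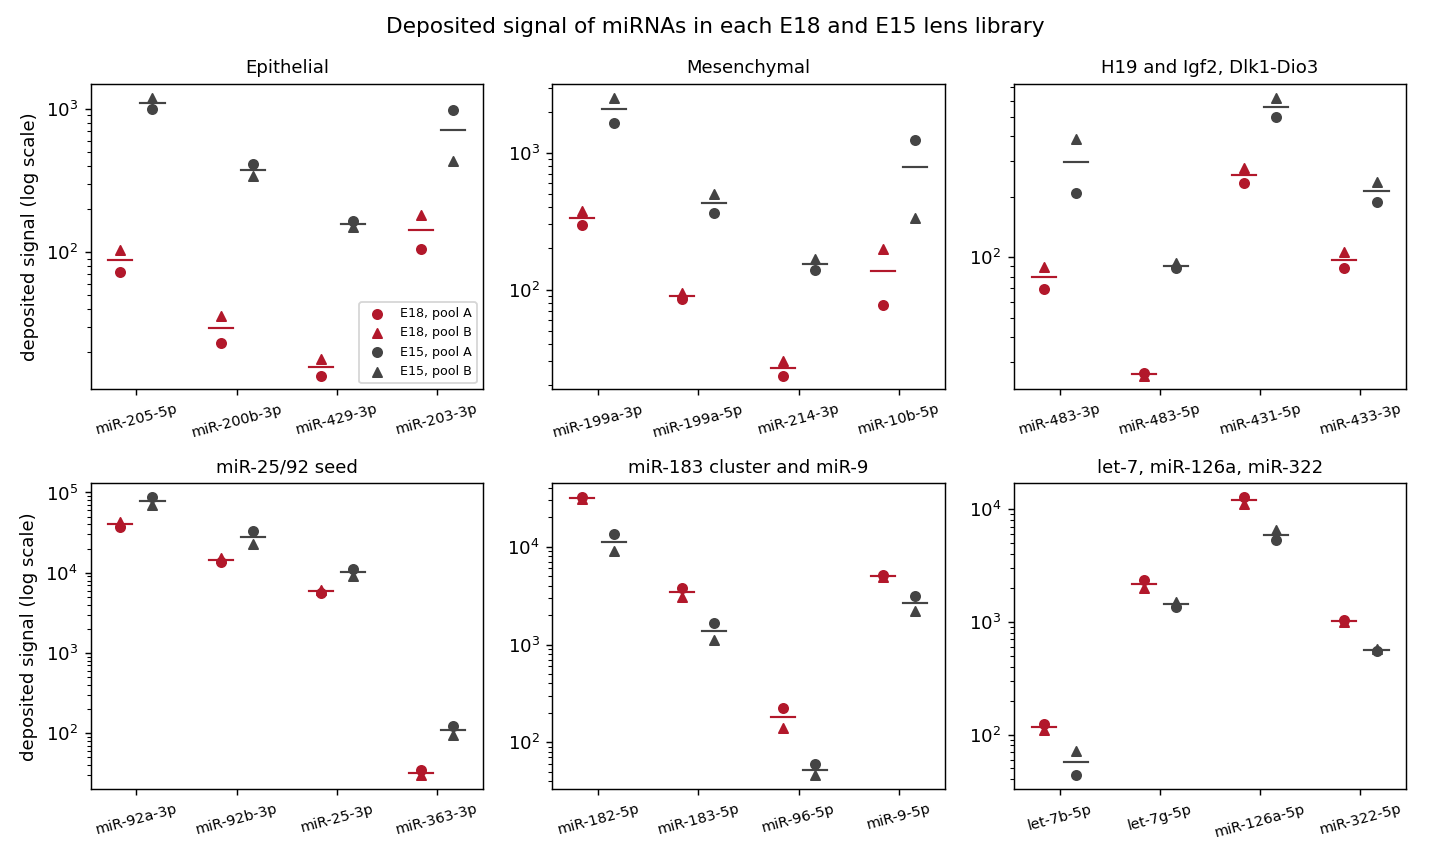
Deposited signal (log axis) of 24 miRNAs in each library, E18 in red at the left and E15 in grey at the right of each name; circles are pool A, triangles pool B, and horizontal lines the mean of the 2 pools. miR-205-5p at 72.5 and 104 in E18 lies far below 991 and 1197 in E15, whereas the E15 pools of miR-10b-5p stand apart at 1249 and 332.

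The imprinted H19 and Igf2 locus on chromosome 7 gave lower miRNA and lower host mRNA. Of its 4 tested miRNAs, 3 fell, where 9.91% of all tested miRNAs did, and all 4 had negative log2 fold changes, with a median of -1.63. Igf2 encodes a fetal growth factor with miR-483 in an intron, and H19 is a noncoding RNA with miR-675 in an exon. On each of the other scales 1 of the 3 calls remained.

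miR-483-5p had 26.4 and 25.8 in the E18 pools, against 88.1 and 93.8 in the E15 pools (-1.76 ± 0.33, adjusted p = 0.00527). This call held on every scale and without any 1 of the 4 libraries. miR-483-3p had 69.6 and 89.4 in E18 and 209 and 387 in E15 (-1.84 ± 0.55, adjusted p = 0.0442). It passed only narrowly, and its adjusted p lay between 0.0671 and 0.257 when any 1 of the 4 libraries was left out, 0.102 with median-ratio rescaling and 0.118 with quantile normalization. miR-675-3p had 4.17 and 6.84 in E18 and 11.8 and 24.0 in E15 (-1.49 ± 0.37, adjusted p = 0.0198). Its adjusted p was 0.175 without E18 pool A, 0.152 without E15 pool B, 0.0540 with median-ratio rescaling and 0.122 with quantile normalization. The hosts were measured apart, in the mRNA libraries. H19 had 298 and 295 RPKM in E18 and 847 and 1256 RPKM in E15 (log2 fold change -1.79 ± 0.19, limma adjusted p = 0.000743). Igf2 had 57.5 and 67.2 RPKM in E18 and 165 and 248 RPKM in E15 (-1.68 ± 0.18, adjusted p = 0.000624), so H19, Igf2, miR-483-5p and miR-483-3p stood at 0.282, 0.302, 0.287 and 0.267 times their E15 means. The miR-483 arms, shown for that reason, are encoded on the minus strand with miR-483-3p at chr7:142654932-142654952:
miR-483-5p: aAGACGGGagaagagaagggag
miR-483-3p: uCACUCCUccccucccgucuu

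The larger imprinted Dlk1-Dio3 domain of chromosome 12 had few calls. Of 108 listed miRNAs 93 were tested, none rose and 10 fell, a share near that of all tested miRNAs. The median was -0.50 on the deposited scale, -0.24 with median-ratio rescaling and -0.18 with quantile normalization, on which 4 and 3 members were called lower. Without E18 pool A, E18 pool B or E15 pool B only 2 were called lower, and without E15 pool A 11; without E15 pool B 2 others were called higher. The largest falls among the more abundant members were those of miR-431-5p and miR-433-3p. miR-431-5p had 235 and 278 in E18 and 497 and 623 in E15 (-1.12 ± 0.22, adjusted p = 0.00599; 0.0662 without E18 pool A). miR-433-3p had 88.7 and 106 in E18 and 189 and 238 in E15 (-1.12 ± 0.24, adjusted p = 0.00954; 0.0949 without E18 pool A and 0.0627 without E15 pool B). miR-127-3p, the domain's most abundant member, did not pass, with 15813 and 15559 in E18 and 18635 and 20943 in E15 (-0.33 ± 0.18, adjusted p = 0.25). Mirg, a noncoding host transcript of the domain, had 2.91 and 2.78 RPKM in E18 and 1.43 and 2.19 RPKM in E15, with no call.

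The miR-17-92 cluster and its paralogs, which promote proliferation in many embryonic tissues, had a negative value for every listed member. Of 13 members 6 fell, where 9.91% of all tested miRNAs did, and none rose. All 13 had negative log2 fold changes, with a median of -0.77, where the median of all tested miRNAs was -0.24. On the other scales the median stayed negative (-0.50 and -0.71), and 3 members were called lower with median-ratio rescaling and 5 with quantile normalization. The count was 1 without E18 pool A, 3 without E18 pool B and 4 without either E15 pool.

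miR-92a-3p was among the most abundant miRNAs of both stages. It had 37337 and 42868 in the E18 pools, against 86964 and 69886 in the E15 pools (-0.96 ± 0.19, adjusted p = 0.00746). Its call was lost with median-ratio rescaling (adjusted p = 0.0591), without E18 pool A (0.0714) and without E15 pool A (0.0619). miR-92b-3p, whose gene lies elsewhere and outside these clusters, had 13647 and 15057 in E18 and 32850 and 22682 in E15 (-0.93 ± 0.21, adjusted p = 0.0132). The same 3 alternatives ended that call, at 0.0959, 0.0949 and 0.104. miR-25-3p had 5636 and 6134 in E18 and 11039 and 9101 in E15 (-0.77 ± 0.15, adjusted p = 0.00670). That call was lost with median-ratio rescaling (0.0685), without E18 pool A (0.0714) and with the 4 libraries alone (0.0506). miR-363-3p, from the X chromosome cluster, had 34.8 and 29.9 in E18 and 125 and 94.2 in E15 (-1.72 ± 0.31, adjusted p = 0.00387), a call kept under every alternative. The exception to the shared seed was miR-32-5p, at 31.8 and 23.0 in E18 and 14.4 and 19.7 in E15 (0.65 ± 0.33, adjusted p = 0.218). Together the 5 miRNAs with seed AUUGCAC summed to 0.519 times their E15 signal.

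The counts of this group by locus cover the tested products found in the RefSeq table, and differences between loci were not tested. The median of all tested miRNAs was -0.24, and 9.91% of them were called lower. At the miR-106a-363 cluster, chrX:52741697-52742563, 5 of 7 such products fell, with a median of -1.28. The opposite arm miR-363-5p, which had no match there, fell as well, at 0.48 and 1.03 in E18 and 5.07 and 4.78 in E15 (-1.77 ± 0.34, adjusted p = 0.00568; 0.0739 without E18 pool A). The 5 included miR-18b-5p at 2.96 and 3.24 in E18 and 11.6 and 12.9 in E15, and miR-20b-5p at 6.02 and 5.52 in E18 and 23.8 and 15.97 in E15, both at low signal. Leaving out 1 library ended the call of miR-18b-5p in each of 4 cases (adjusted p = 0.0508 to 0.0957) and that of miR-20b-5p without either E18 pool or E15 pool A (0.0731 to 0.0848). At the miR-17-92 cluster, chr14:115043684-115044496, 2 of 11 fell and all 11 had negative values (median -0.60), whereas miR-19a-5p, with no match in the table, had a log2 fold change of 0.27 at a low signal of 2.69 and 2.28 in E18 and 1.66 and 2.14 in E15. At the miR-106b-25 cluster in an intron of Mcm7, chr5:138165332-138165807, 2 of 6 fell and all 6 were negative (median -0.71). The best known members did not pass, with miR-17-5p at -0.60 ± 0.19 (adjusted p = 0.0585) and miR-20a-5p at -0.24 ± 0.25 (0.605). Host Mcm7, a replication licensing gene, had 28.9 and 29.3 RPKM in E18 and 48.8 and 25.5 RPKM in E15 and was not called. Mature miR-92a-3p and miR-19b-3p are counted at both the X and the chromosome 14 cluster.

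Further falls lay outside these groups. miR-1298-5p had 9.75 and 16.9 in E18 and 58.7 and 52.9 in E15 (-2.03 ± 0.33, adjusted p = 0.00200), a call kept under every alternative. miR-760-3p had 21.2 and 15.0 in E18 and 57.3 and 45.3 in E15 (-1.46 ± 0.33, adjusted p = 0.0135), and was not called with quantile normalization (0.0597), without E18 pool B (0.113) or without E15 pool A (0.0848). miR-466i-5p had 1.4 and 1.87 in E18 and 9.63 and 18.6 in E15 (-2.46 ± 0.50, adjusted p = 0.00822), a call lost with quantile normalization (0.0660), without E18 pool A (0.0662) and without E15 pool B (0.0666). For each of these 3 the pools of the stages did not overlap. miR-302a-3p, miR-302b-3p and miR-302d-3p, of a cluster known from pluripotent cells, were called lower. They are 3 of 4 tested of that list, where 9.91% of all tested miRNAs were lower. Yet each lay below a signal of 1 in E18 and at most 4.00 in E15. None was kept with quantile normalization, and no member of the list was called without either E18 pool. miR-208b-3p, of slow muscle, had 1.52 and 3.27 in E18 and 6.17 and 12.9 in E15 and was not called on either other scale (adjusted p = 0.0693 and 0.0870), without E18 pool A (0.213) or without E15 pool B (0.177). miR-181d-5p had 2391 and 2319 in E18 and 3555 and 3148 in E15 (-0.51 ± 0.14, adjusted p = 0.0339). Its call did not hold on the other scales (0.362 and 0.192), nor without E15 pool A (0.127), E18 pool A (0.147) or E18 pool B (0.165). miR-6240 had 26.1 and 14.8 in E18 and 59.1 and 153 in E15 (-2.22 ± 0.46, adjusted p = 0.00896), with the E15 pools far apart and the call lost without E18 pool B (0.0661) or E15 pool B (0.0771).

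**Figure D3:**
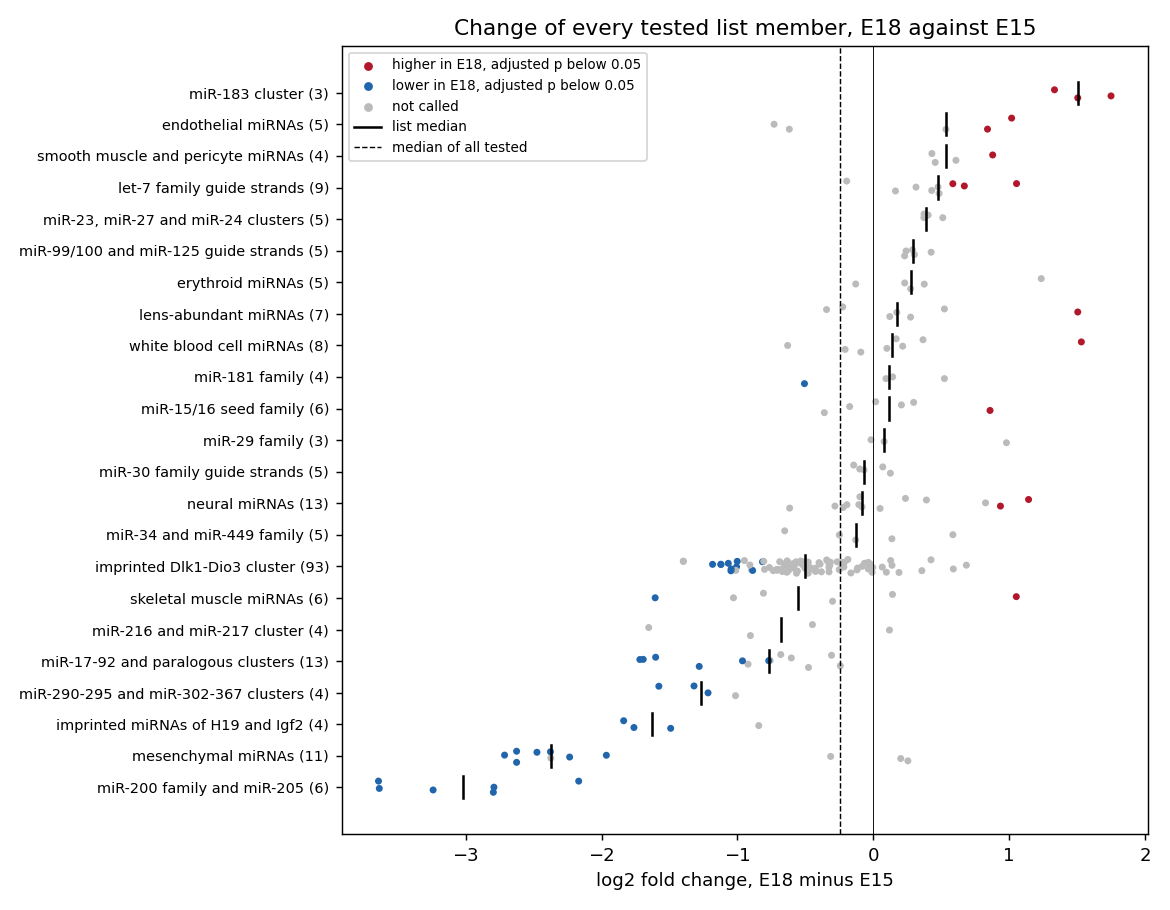
Log2 fold change (E18 minus E15) of every tested member of 23 miRNA lists, with the number tested in brackets; red points were called higher, blue lower and grey neither, black bars are list medians and the dashed line is the median of all tested miRNAs, -0.24. The miR-200 family with miR-205 lies lowest (median -3.02, 6 of 6 called lower) and the miR-183 cluster highest (median 1.50, 3 of 3 called higher).

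The rises were led by the miR-183 cluster, which is expressed in photoreceptors, hair cells and other sensory cells. All 3 guide strands rose, where 2.19% of tested miRNAs did, and their median log2 fold change was 1.50. miR-182-5p had 32045 and 30851 in the E18 pools, against 13444 and 9131 in the E15 pools (1.50 ± 0.26, adjusted p = 0.00305). It was 2.79 times as high in E18, and the call held under every alternative and leave-out. miR-183-5p had 3796 and 3068 in E18 and 1660 and 1104 in E15 (1.33 ± 0.27, adjusted p = 0.00822; 0.0714 without E18 pool A and 0.0703 without E15 pool B). miR-96-5p had 227 and 140 in E18 and 59.5 and 45.9 in E15 (1.75 ± 0.33, adjusted p = 0.00587; 0.0662 without E18 pool A). Without E18 pool A the cluster thus kept 1 call, and without E15 pool B 2. The passenger strand miR-183-3p was called higher as well, and all 6 tested products of the locus had positive values.

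miR-9, which acts in neural and retinal progenitors, rose from both arms, 2 of 13 neural miRNAs, where 2.19% of all tested miRNAs rose. miR-9-5p had 5147 and 4868 in E18 and 3135 and 2183 in E15 (0.94 ± 0.27, adjusted p = 0.0359). miR-9-3p had 78.9 and 53.6 in E18 and 27.7 and 30.2 in E15 (1.14 ± 0.31, adjusted p = 0.0286). These calls were less stable than those of miR-182: miR-9-5p lost its call without E18 pool A (0.166), E18 pool B (0.112) or E15 pool B (0.235), with the 4 libraries alone (0.0503), with no intensity trend (0.0947), with no filter on low values (0.102) and with the pool letter as a block (0.0514), and miR-9-3p without E18 pool A (0.224), E15 pool A (0.114) or E15 pool B (0.0824), with the 4 libraries alone (0.0506), with no trend (0.0520) and with no filter (0.0737). The other 11 neural miRNAs did not pass. The list's median was -0.08 and changed sign on the other scales (0.17 and 0.32). miR-124-3p, of differentiated neurons, had 336 and 246 in E18 and 182 and 144 in E15 (0.83 ± 0.32, adjusted p = 0.112).

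Retina markers moved unevenly beside these rises. Crx, a photoreceptor transcription factor, was called higher (as were 5.48% of tested genes) at 14.6 and 14.8 RPKM in E18 and 6.56 and 1.90 RPKM in E15 (adjusted p = 0.0400; 0.157 to 0.205 without E18 pool A, E18 pool B or E15 pool B of the mRNA libraries). Sfrp2, a Wnt antagonist of early retina, was called lower at 43.6 and 37.2 RPKM in E18 and 241 and 74.7 RPKM in E15. Rax and Fgf15, genes of retinal progenitors, did not pass (log2 fold changes of 0.57 and 0.63), and for each of them both E18 pools lay between the 2 E15 pools. The part of retinal RNA in the miR-183 and miR-9 values was not tested. At the later stages the retina marker sums stayed low, at 44.8 and 31.0 RPKM on P0, 35.5 and 49.2 RPKM on P3, 28.2 and 18.2 RPKM on P6 and 26.2 and 54.9 RPKM on P9. miR-182-5p averaged 10602 on P0, also low, and 62119 on P3, 65273 on P6 and 120607 on P9. The genes in the retina sums differed in course. Crx averaged 4.23 RPKM at E15, 14.7 RPKM at E18 and 2.67 RPKM on P0. It then averaged 11.8 RPKM on P3, 13.0 RPKM on P6 and 29.2 RPKM on P9. The P9 means of Rax, Sfrp2 and Fgf15 were 9.64, 0.32 and 1.42 RPKM, below their E15 means of 47.9, 158 and 201 RPKM.

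let-7, known from worm, fly and mammals as a brake on progenitor programs that accumulates with developmental age, rose in part. Of 9 guide strands 3 rose, where 2.19% of all tested miRNAs did, and none fell, and 8 of 9 had positive values, with a median of 0.48 (0.75 and 0.56 on the other scales). let-7b-5p had 124 and 110 in E18 and 43.4 and 71.8 in E15 (1.05 ± 0.25, adjusted p = 0.0175). let-7g-5p had 2335 and 1989 in E18 and 1366 and 1510 in E15 (0.59 ± 0.15, adjusted p = 0.0244). miR-98-5p had 335 and 295 in E18 and 186 and 209 in E15 (0.67 ± 0.17, adjusted p = 0.0205). The calls of all 3 held on the other scales but depended on single libraries, since none of the 9 was called without E18 pool A, E18 pool B or E15 pool A, and 3 were without E15 pool B. With the 4 libraries alone none of the 3 was called (0.0707 to 0.0899), and with no intensity trend let-7b-5p alone of the 3 was (0.0400). The most abundant members, let-7f-5p at 5611 and 5945 in E18 and 3825 and 4504 in E15 and let-7a-5p at 5585 and 4832 in E18 and 3365 and 4420 in E15, did not pass (adjusted p = 0.115 and 0.193). let-7b-3p, the opposite arm of let-7b, was called higher with 20.5 and 18.9 in E18 and 7.53 and 9.68 in E15.

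miRNAs of vessels were mixed. For the counts that follow, 2.19% of all tested miRNAs and 5.48% of all tested genes were called higher. miR-126, processed from an intron of the endothelial gene Egfl7 and needed for vessel integrity in mouse, was higher from both arms. miR-126a-5p had 12714 and 11129 in E18 and 5337 and 6463 in E15 (1.02 ± 0.24, adjusted p = 0.0147). miR-126a-3p had 2624 and 2468 in E18 and 1195 and 1689 in E15 (0.84 ± 0.20, adjusted p = 0.0183). Without E18 pool A neither passed (0.101 and 0.105), nor without E15 pool A (0.0955 and 0.118), and miR-126a-3p did not without E18 pool B (0.0591). The other 3 of the 5 miRNAs listed here as endothelial, miR-221-3p, miR-222-3p and miR-511-3p, were not called. Whether each listed miRNA is particular to vessel cells was not tested. Egfl7 mRNA had 45.0 and 52.1 RPKM in E18 and 36.0 and 29.8 RPKM in E15 (0.55 ± 0.14, adjusted p = 0.0323). That call was lost with median-ratio rescaling (0.0548) and without E18 pool A (0.0833), E18 pool B (0.244) or E15 pool B (0.107) of the mRNA libraries. Of 5 endothelial marker mRNAs, which summed to 53.1 and 75.3 RPKM in E18 and 60.5 and 40.3 RPKM in E15, Kdr, a receptor for vascular endothelial growth factor, rose and none fell. Its values were 14.2 and 17.2 RPKM in E18 and 9.06 and 4.70 RPKM in E15, a call lost without either E18 mRNA pool (0.0986 and 0.207) or E15 pool B (0.0965). The part of vessel cells in the miR-126 rise was not tested. Among 4 smooth muscle and pericyte miRNAs, miR-145a-3p rose with 49.3 and 38.9 in E18 and 22.6 and 24.2 in E15 (adjusted p = 0.0372), a call lost without any 1 of the 4 libraries (0.0844 to 0.259).

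The shown guide of this group and that of miR-322, described next, read:
miR-126a-3p: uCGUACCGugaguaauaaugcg
miR-322-5p: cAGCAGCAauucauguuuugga
miR-322-5p carries the miR-15/16 seed, whose targets include cell cycle genes. Of 6 tested members of that list it alone was called on the deposited scale, where 12.1% of all tested miRNAs were. It had 1042 and 1000.01 in E18 and 552 and 572 in E15 (0.86 ± 0.17, adjusted p = 0.00611; 0.0616 without E18 pool A). The pools of each stage were close. miR-16-5p had a log2 fold change of 0.02 and miR-15b-5p one of -0.36, neither called.

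Blood cell miRNAs did not follow the erythroid mRNAs. Of 8 white blood cell miRNAs 1 was called, where 12.1% of all tested miRNAs were called and 2.19% were higher. It was miR-150-5p, of mature lymphocytes, with 64.7 and 82.4 in E18 and 21.2 and 28.6 in E15 (1.53 ± 0.25, adjusted p = 0.00236). That call held under every alternative and leave-out. None of 5 erythroid miRNAs was called by limma (1 with an unadjusted p under 0.05; 1 was called higher without E15 pool B), and miR-451a had 958 and 1017 in E18 and 549 and 1053 in E15. In the mRNA libraries 3 of 4 erythroid markers passed the test as lower, where 3.67% of 14405 tested genes did. Hbb-y, a globin of embryonic red cells, had 0.703 and 0.257 RPKM in E18 and 294 and 285 RPKM in E15 (-7.63 ± 0.19, adjusted p = 1.79e-08), and adult Hbb-b1 had 684 and 664 RPKM in E18 and 1401 and 1442 RPKM in E15 (-1.08 ± 0.29, adjusted p = 0.0484). Macrophage mRNAs summed to 68.6 and 85.4 RPKM in E18 and 59.2 and 45.6 RPKM in E15, with C1qa called higher (adjusted p = 0.0241; 0.0928 to 0.170 without either E18 mRNA pool or E15 pool B). Lyz2 of that list had 7.36 and 10.2 RPKM in E18 and 16.9 and 19.5 RPKM in E15 and did not pass (-0.99 ± 0.33, adjusted p = 0.0909). Muscle miRNAs went both ways: miR-1a-3p rose with 189 and 191 in E18 and 86.1 and 96.5 in E15 (1.05 ± 0.27, adjusted p = 0.0220), a call lost without any 1 of the 4 libraries (0.0664 to 0.108), while miR-133a-3p was not called, at 3181 and 4199 in E18 and 3783 and 5350 in E15.

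Among the most abundant miRNAs, miR-182-5p was called higher and miR-92a-3p and miR-92b-3p lower, with values given above. The others of that set, miR-184-3p, miR-204-5p, miR-181a-5p, miR-126b-3p, miR-99b-5p, miR-26a-5p and miR-127-3p, showed no call on the deposited scale. Calls were thus not rarer in that set than among all tested miRNAs, of which 12.1% were called. miR-184-3p, abundant in lens and cornea, had 61481 and 60549 in E18 and 51717 and 60829 in E15 (0.12 ± 0.19, adjusted p = 0.726). miR-204-5p, which in the developing eye of medaka fish represses Meis2, had 54802 and 73530 in E18 and 75271 and 73121 in E15 (-0.22 ± 0.22, adjusted p = 0.574). Its host Trpm3 was likewise not called, while Trpm1, host of the close relative miR-211, rose to 16.3 and 19.7 RPKM in E18, against 8.41 and 6.41 RPKM in E15. miR-211-5p itself did not pass (0.27 ± 0.18, adjusted p = 0.363). miR-181a-5p had 60826 and 70557 in E18 and 44664 and 46505 in E15 (0.52 ± 0.17, adjusted p = 0.0628), with no overlap, and it was called higher on both other scales (0.0174 and 0.00162). miR-126b-3p, encoded on chromosome 2 like miR-126a-3p, was not called. Its E18 pools A and B differed at 37995 and 14324, with the E15 pools between them at 16017 and 19288. miR-126a-5p had 12714 and 11129 in those E18 pools and 5337 and 6463 in the E15 pools. Apart from E18 pool B, miR-126b-3p and miR-126a-5p thus moved in parallel over these pools. Their means on P0, P3, P6 and P9 did too, at 35728, 29641, 20249 and 11658 for miR-126b-3p. For miR-126a-5p these means were 11922, 9905, 6767 and 3882. Whether the names stand for separate signals was not tested. Several lists had no call in limma on the deposited scale. These were the miR-29 family (3 tested, median 0.08), the miR-30 guides (5, -0.07) and the miR-23, miR-27 and miR-24 clusters (5, 0.39). Also without a call were the miR-34 and miR-449 family (5, -0.13), the miR-216 and miR-217 cluster (4, -0.68) and the miR-99/100 and miR-125 guides (5, 0.29). At an unadjusted p under 0.05 these lists held 0, 0, 4, 1, 2 and 1 members in that order. With median-ratio rescaling the medians of the miR-30 and miR-34 lists turned positive (0.21 and 0.14). With quantile normalization they were -0.06 and 0.16. On each of these other scales 4 of 5 miR-23, miR-27 and miR-24 members were called higher. So was 1 of 5 miR-99/100 and miR-125 guides. Of all tested miRNAs, 4.89% were called higher with median-ratio rescaling and 5.53% with quantile normalization.

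The 2 arms of a precursor are measured apart, and where either was called they mostly moved together. Of 246 precursors with both arms tested, 175 had arms of the same sign. With identical miRNAs counted once, 168 did. Of 50 with at least 1 arm called, 47 had the same sign, and in all 15 with both arms called the direction was shared, 11 lower and 4 higher in E18. The 3 that differed in sign were miR-99b, miR-1247 and miR-219c, each with the 3p arm lower and the 5p arm uncalled. The 15 are not all separate, since miR-199a and miR-199b are both among them and share their 3p values. Of the 94 calls 77 were lower and the median of all tested miRNAs was -0.24, and no expected share of same signs was worked out. Among 13 tested host genes of listed miRNAs 6 were called, where 9.15% of all tested genes were. Besides those named, Mest, an imprinted gene with miR-335 in an intron, and Wwp2, host of miR-140, were lower without a call for their miRNAs. Both host calls were lost without either E18 mRNA pool (adjusted p = 0.0984 to 0.187).

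At all later stages each of the 77 fallen miRNAs had a mean below its E15 mean, and for 46 of them no later mean exceeded that of E18. The deposited scale itself drifted with age. The factors of median-ratio rescaling were 1.35 and 1.43 in the E15 pools and 0.762 and 0.714 in the P9 pools. A later mean below that of E15 therefore need not be particular to the fallen miRNAs. The same count over all tested miRNAs is not given here. Of the 17 risen ones, 6 had means above that of E15 at all later stages. miR-675-3p did not stay at its E18 level, averaging 17.9 at E15, 5.50 at E18 and 14.6 on P0. At E15 miR-205-5p averaged 1094 ± 146 and at E18 88.1 ± 22.03 (SD, n = 2 pools per stage), and it went on to 58.8 on P0, 64.9 on P3, 21.0 on P6 and 19.3 on P9. For miR-92a-3p the averages were 78425 at E15 and 40102 at E18, then 25677 on P0, 30043 on P3, 17082 on P6 and 13010.0 on P9. Both had their lowest means at P6 and P9. miR-182-5p averaged 11287 at E15 and 31448 at E18, then 10602 on P0, 62119 on P3, 65273 on P6 and 120607 on P9, with a dip on P0 close to its E15 mean that miR-183-5p and miR-96-5p shared. miR-9-5p lay further below its E15 mean on P0, at 1109, against 2659 at E15. miR-126a-5p averaged 5900.1 at E15 and 11922 at E18, then 11922 on P0, 9905 on P3, 6767 on P6 and 3882 on P9, so that its E18 and P0 means were the highest of the course. miR-322-5p was likewise highest at E18, at 1021, and stood at 211 at P9. Stage levels after E18 are given as a description and were not tested here.

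**Figure D4:**
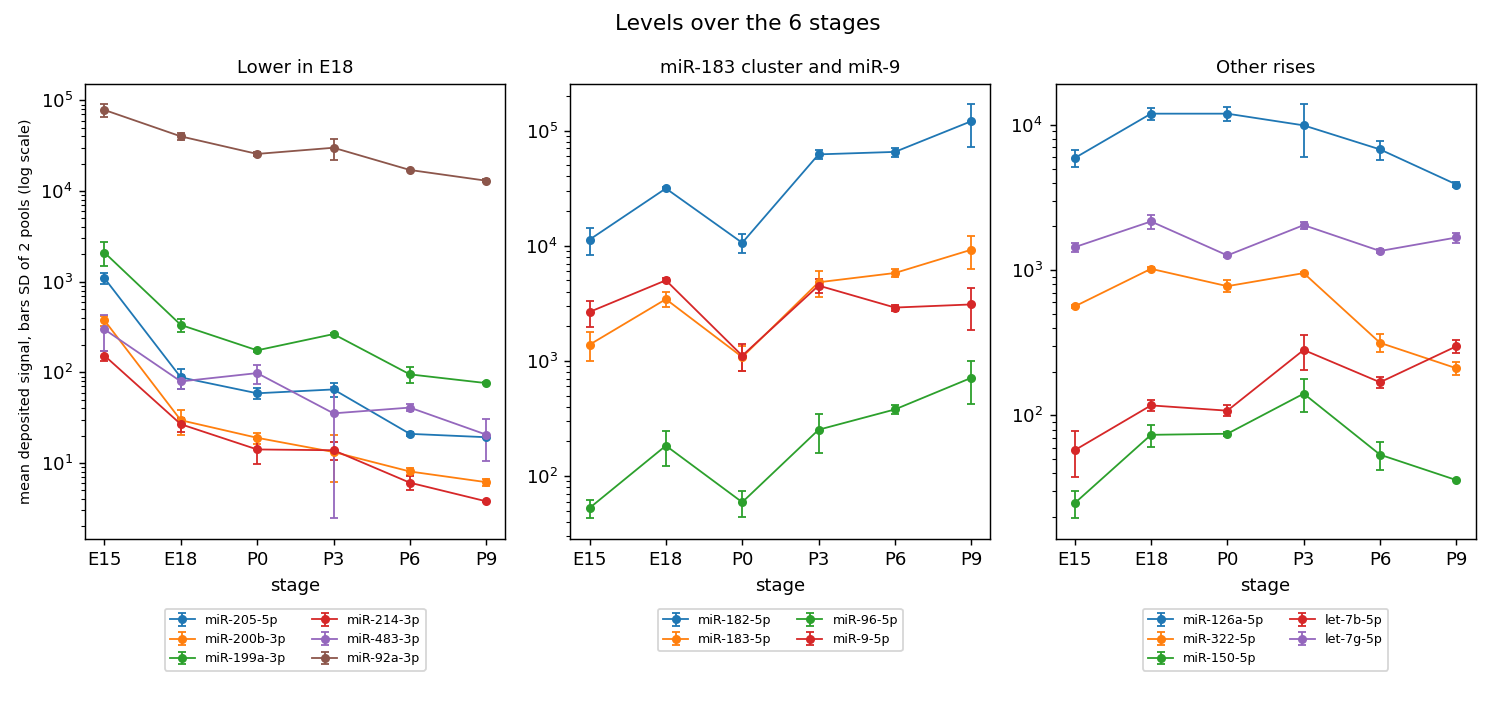
Mean deposited signal (log axis, bars SD of 2 pools) of 15 miRNAs at the 6 stages from E15 to P9, in 3 panels. miR-205-5p averages 1094 at E15 and 19.3 at P9, miR-182-5p dips at P0 and reaches 120607 at P9, and miR-126a-5p is highest at E18 and P0.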

How the data were processed

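Per the labels' protocols, lenses were dissolved in Trizol, and TruSeq Small RNA and TruSeq RNA v2 libraries were made from total RNA. The submitters' processing notes name SAMtools 0.1.18, Bowtie 0.12.8 and the mouse build GRCm38/mm10, without their roles. The small-RNA tables hold, per miRNA, a deposited signal whose unit the labels do not state and that was treated as scaled by the authors; its low values fall on no common step, so read depth is unknown and no interval for counting error is given. The mRNA values deposited by the authors were read as RPKM, because low values follow the transcript length. The treatment of reads matching several loci was not given in the sources used here.

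Tables were read in Python 3.11.15 (pandas 2.3.3). miRNAs with a signal of at least 1 in at least 2 of the 12 libraries were tested on log2(signal + 1) with limma 3.58.1 in R 4.3.3, with stage as a factor of 6 levels, an intensity trend and 6 residual degrees of freedom. mRNAs were fitted likewise on log2(RPKM + 1). The fit was tested on simulated data. Pools are separate pups, so p-values measure the spread between pools. Alternatives changed the pseudocount, the filter, the scale, the libraries and the trend, left out each pool or blocked on the pool letter. Lists gave counts and medians, with no set test. Of 777 tested names, 641 matched the RefSeq miRNA table, and clusters join loci within 10000 bases. Members and lists were chosen with earlier results of these data known. Named were the called miRNAs with the largest rises and falls among means of at least 100, up to 3 called or the most abundant member of each list, the 10 most abundant miRNAs and the listed host genes; other members named were chosen after their values were seen. A further retina marker is not reported here.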

Additional observations from a re-analysis of the deposited data

How the results depend on the processing

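The main count of 94 called miRNAs, 17 higher and 77 lower in E18, moved by over 1.5 times under some of the alternatives. With the 4 libraries of E18 and E15 alone, which leaves fewer samples for the spread, 46 were called, 7 higher and 39 lower, and 30 list members against 51. Without the P3 libraries, whose pools differed most, 161 were called, 27 higher and 134 lower. Median-ratio rescaling gave 38 higher and 39 lower and quantile normalization 43 and 33. Leaving out 1 of the 4 libraries gave 27 to 59 calls, 2 to 14 higher and 25 to 48 lower, and 19 to 38 list members. Precursors with arms of the same sign numbered 175, against 299 with no filter on low values and 95 with a minimum of 10, since those settings test more or fewer miRNAs, and 164 to 180 with 1 library left out. Host genes called numbered 6, and 3 to 7 with 1 mRNA library left out. Quantile normalization thus turned the balance of directions, and the medians of the neural, miR-30 and miR-34 lists changed sign on other scales. No named and called miRNA changed sign under any alternative. Of 54 named miRNAs 41 were called, and 13 of these, which are 12 measurements, kept their call under every alternative they were tested in (14 or 15). Calls lost were 14 with the 4 libraries alone, 9 on each other scale, 8 with no trend, 7 with no filter, 5 with a pseudocount of 0.5, 4 with the replicate block and 1 with a minimum of 10. The A minus B differences of the stages correlated at 0.0286, which cannot show whether a pool letter marks a litter or day shared between stages. The labels do not say that it does. The fit with the pool letter as a block called 84. With 2 pools per stage and unknown depth, a low signal and a small change cannot be judged, and miRNAs sharing sequence cannot be told apart.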

Other observations

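Of 9 mature miRNAs encoded in the Hox gene clusters, 6 had their highest value of the 12 small-RNA libraries in E15 pool A. These include miR-10a-3p at 1.04 and miR-615-5p at 0.06, values near the floor. The share of all miRNAs that were highest in that library is not given here. miR-10a-5p measured 1136 in E15 pool A and 113 in E15 pool B, and 28.1 to 106 in the 10 libraries of the later stages. miR-196b-5p measured 8.58 in E15 pool A, 0.32 in E15 pool B and at most 0.14 in the later libraries. miR-615-3p measured 11.7 in E15 pool A, 1.16 in E15 pool B and at most 0.37 in the later libraries. miR-196a-5p was higher in E15 pool B (0.25) than in pool A (0.09), miR-10b-3p was highest in a P3 library (0.32), and miR-196b-3p was listed at 0 in all. The 39 Hox genes summed to 0.043 RPKM in the E15 pool A mRNA library and 0.044 RPKM in that of E15 pool B, and to at most 0.423 RPKM in any of the 12. Hox mRNA was thus near 0 in all 12 mRNA libraries. The labels do not say whether the mRNA and small-RNA libraries of E15 pool A came from the same pups. These miRNAs and genes were chosen after their values were seen, and the source of the Hox-cluster signal was not tested.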
